A study of Mus musculus with 24 samples.

Results

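The genes of cholesterol synthesis, uptake and efflux were followed in the developing mouse lens. The set was given as 31 gene symbols: enzymes from acetyl-CoA to cholesterol, the SREBP transcription factors with their retention proteins, and proteins that move or store cholesterol. The symbols were matched exactly to the gene column of the mRNA tables, and they gave 30 entries of the 30705 listed, because Msmo1 and Sc4mol are symbols of 1 gene, listed as Sc4mol. By role there were 8 genes of the mevalonate steps, 11 of the squalene and sterol steps, 5 of SREBP control and 6 of transport and storage. All 30 passed the filter on low values, which kept the 14405 genes with at least 1 RPKM (reads per kilobase of transcript, scaled to the size of the library) in at least 2 libraries.

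Cells make cholesterol from acetyl-CoA through mevalonate, isoprenoid diphosphates, squalene and lanosterol. When sterol in the endoplasmic reticulum is low, Scap carries the SREBP precursors to the Golgi, where they are cut to active factors that switch on the enzymes of this route; when sterol is high, the Insig proteins hold Scap back, and LXR receptors switch on the efflux transporters. The fibre cells of the lens have plasma membranes that are unusually rich in cholesterol, and inherited defects of DHCR7 or LSS can cause cataract in people.

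Ocular lenses came from mice of the strain C57BL/6. Embryos were taken on days 15 and 18 of gestation (E15, E18) and pups on postnatal days 0, 3, 6 and 9 (P0, P3, P6, P9), with no treatment or altered gene named in the labels. Lenses were dissected with forceps, and each stage had 2 biological replicates, called pools A and B here, each from 8 to 9 pups. Each pool gave an mRNA library and a small-RNA library, so there were 12 of each. The design asks how expression changes with stage.

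The mRNA values were deposited as relative levels, and crystallin genes took a growing share of them, from 27.5% (E15 A) and 38.5% (E15 B) to 61.3% (P9 A) and 60.7% (P9 B). Each library was therefore divided by the median ratio of its genes to their geometric means over libraries, and levels below are such rescaled RPKM unless "as deposited" is written. On the deposited scale the median of all tested genes moved by -0.61 (log2) from E18 to P9, and on the rescaled one by -0.01. Depth, read from the steps between low values, was about 20.2 M reads in P9 B to 43.4 M reads in E18 B. The pools differed most at E15, where genes were 0.29 apart between the pools at the median (absolute log2 difference), against 0.11 to 0.16 at the other stages. All 8 lens markers checked, among them Cryaa, Mip and Bfsp1, were present in every library. RNA of other cells was present as well and moved with stage: the 5 neural retina progenitor markers summed to 536 (E15 A), 176 (E15 B), 343 (E18 A) and 312 (E18 B), and to 18.7 to 66.9 in the postnatal libraries, with no marker at 0. The 6 proliferation markers summed to 191 to 284 in the embryonic and 22.7 to 110.0 in the postnatal libraries, the 7 macrophage markers to 45.6 to 81.4 and 6.38 to 51.8, and the 5 photoreceptor markers to at most 1.66 before birth, 103 in P9 A and 230 in P9 B. The 5 endothelial markers summed to 35.2 to 55.3 and 10.9 to 29.5, and the 4 mesenchymal ones to 10.7 to 34.2 and 16.7 to 30.4. Pdgfra was the highest mesenchymal marker in every library, at 7.12 to 26.7, so it weighed most in that sum. It was 10.4 in E15 A and 20.9 in E15 B, where the lens marker Foxe3 was 33.4 and 79.6. By stage means, both were lowest at E18. Whether the Pdgfra RNA came from mesenchyme or from lens cells was not tested. The stage means of Col1a1 went from 4.78 at E15 to 0.526 at P9, of Col1a2 from 6.57 to 1.99 and of Col3a1 from 1.99 to 0.128. Between E15 and P9, 3 of the 4 mesenchymal markers were lower at P9. From E18 to P9, 7 of the 8 lens markers rose and 1, Pax6, fell, with a median change of 1.83 (log2). Among the other markers, 4 of the 5 retina progenitor, 6 of 6 proliferation, 7 of 7 macrophage, 5 of 5 endothelial and 3 of 5 erythroid ones fell. The 5 photoreceptor markers rose, as did 1 of the 4 mesenchymal ones, Pdgfra. Gnat1 and Hbb-y were among the markers at 0 in some library. The part of these cells in the results below was not tested, except where a fit with Rax, a retina progenitor gene, as a covariate is given.

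The set did not move as 1 block. From E18 to P9, 8 of the 30 genes fell and 3 rose (limma, Benjamini-Hochberg adjusted p below 0.05), while 20.5% of all tested genes fell and 22.2% rose. The genes that fell were Acat2, Hmgcs1, Sqle, Sc4mol, Nsdhl, Ebp, Srebf2 and Stard4, and those that rose were Dhcr7, Srebf1 and Insig2. The median change of the 30 was 0.02 (log2), beside -0.01 for all tested genes. Across birth, from E18 to P0, 9 genes fell (17.1% of all tested genes did) and 1 rose (18.0%); without E18 A, E18 B or P0 B 5 fell (7.96%, 6.32% and 8.82% of all tested genes) and 0 rose (10.5%, 8.62% and 11.2%). Between E15 and P9, the longest span, 11 were lower at P9 (19.6% of all tested genes were) and 2 higher (21.3%). In the mean of the postnatal against the mean of the embryonic stages, 13 were lower (27.6%) and 3 higher (27.1%). Without both E15 pools, 8 genes fell and 4 rose from E18 to P9 (24.5% and 26.1% of all tested genes), and 9 fell and 2 rose from E18 to P0 (21.8% and 23.0%); without E18 B 5 fell and 0 rose from E18 to P9 (11.9% and 14.5%), and without P9 A 5 fell and 1 rose (13.4% and 15.6%). The joint test over the 6 stages called 14 of 30 (46.7%), close to the 47.5% of all tested genes. In a bulk sample, fewer cells of a type and less RNA per cell cannot be told apart.

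The other steps between neighbouring stages gave no calls in limma. From E15 to E18 8.11% of all tested genes were called, and 10 of the 30 had an unadjusted p below 0.05, as had 26.4% of all tested genes. Without the library E15 A, 8 were called, with 32.9% of all tested genes: Idi1, Fdps, Fdft1, Cyp51, Nsdhl, Insig1, Abca1 and Npc1. Between these stages 1 gene was called as deposited and with a Rax covariate (Insig1; 9.15% and 9.94% of all genes) and 1 after quantile normalization (Hsd17b7; 7.64%). From P0 to P3 the background was 0.389%, with 3 of the 30 and 11.8% of all tested genes at an unadjusted p below 0.05, and Dhcr7 and Sqle were called without both E15 pools (0.61 and 0.50, adjusted p = 0.0170 and 0.0340; 2.0% of all genes). From P3 to P6 it was 1.26%, with 1 and 14.1% of all tested genes at an unadjusted p below 0.05 (Dhcr7, called without both E15 pools at 0.40, adjusted p = 0.0411, with 8.09% of all genes), and from P6 to P9 0.292%, with 2 and 7.23% at an unadjusted p below 0.05.

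**Figure D1:**
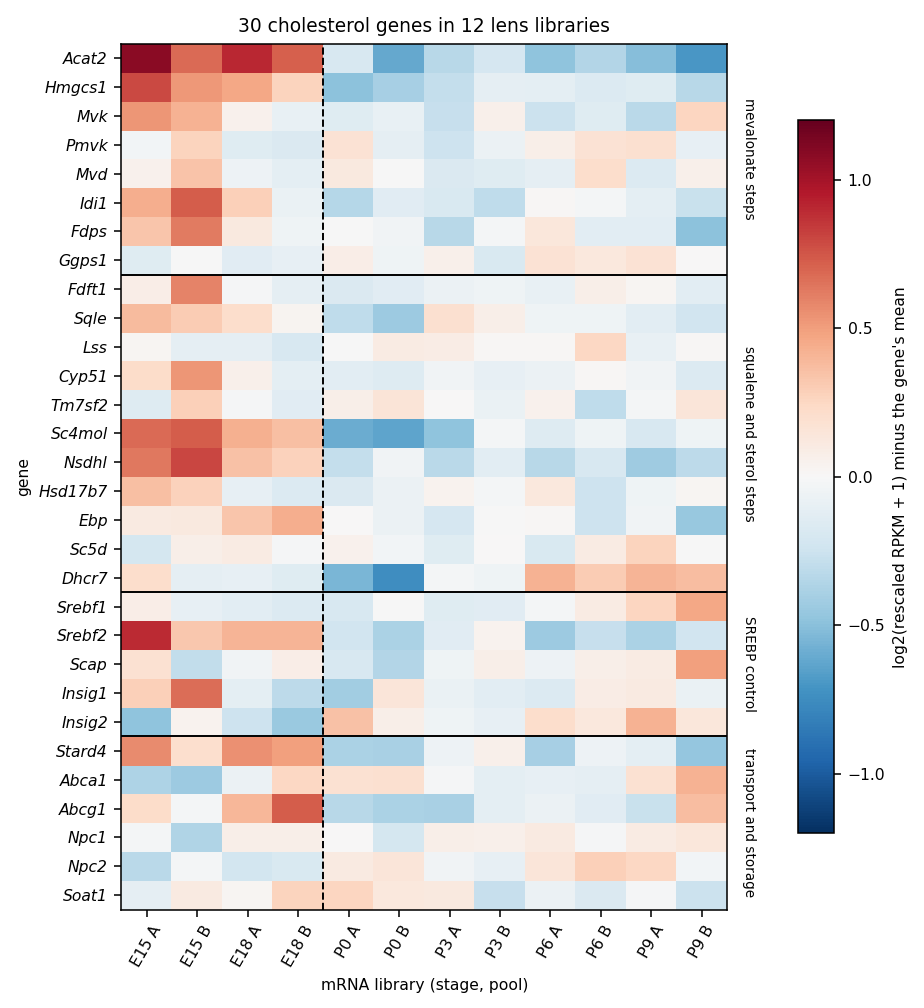
Each row is 1 of the 30 genes, grouped by role, and each column 1 of the 12 mRNA libraries; colour gives log2(rescaled RPKM + 1) minus the gene's mean over libraries, and the dashed line marks birth. Acat2, Hmgcs1, Sc4mol, Nsdhl, Srebf2 and Stard4 are above their means in the 4 embryonic libraries, Insig2 is highest in P9 A, and Lss, Tm7sf2 and Sc5d stay near their means.

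Per length, the set was not rare RNA. The mean level over the 12 libraries ran from 1.68 (Abcg1) to 38.0 rescaled RPKM (Npc2), and 22 of the 30 lay above 5.57, the median of all tested genes. Summed over the 19 enzymes, synthesis mRNA was 321 and 335 in the E15 pools, 282 and 257 at E18, 226 and 218 at P0, 229 and 238 at P3, 241 and 250 at P6 and 240 and 228 at P9. The 4 embryonic sums lay above the 8 postnatal ones, but the gap between E18 B (257) and P6 B (250) rests on Acat2. Acat2 was 22.0 in E18 B and 10.003 in P6 B, and its reads could be placed on the near-identical Acat3. Without Acat2, the sum of E18 B would lie below that of P6 B. It would also do so with Acat3 added, which was 28.3 in E18 B and 42.3 in P6 B. As deposited, the sum over the 19 enzymes went from 455 and 383 at E15 to 186 and 188 at P9.

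Sequence before the start site was read for the genes that fell from E18 to P0 and that have 1 promoter window in RefSeq (GRCm38.p6). Their shared direction is the rule by which they were chosen and not a finding. The 150 bases before the start are given 5′ to 3′ on the gene's strand; capitals mark 3 motifs searched on both strands, TCACNCCAC (a sterol response element, the site SREBPs bind), CCAAT (the box of NF-Y, a partner of SREBP) and GGGCGG (the GC box of Sp1).
Acat2: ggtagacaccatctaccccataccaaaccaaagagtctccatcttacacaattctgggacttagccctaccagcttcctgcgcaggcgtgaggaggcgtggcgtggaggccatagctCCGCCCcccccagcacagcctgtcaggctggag
Hmgcs1: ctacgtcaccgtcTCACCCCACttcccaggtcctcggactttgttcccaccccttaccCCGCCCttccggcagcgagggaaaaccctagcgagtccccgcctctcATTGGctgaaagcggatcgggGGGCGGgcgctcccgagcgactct
Sc4mol: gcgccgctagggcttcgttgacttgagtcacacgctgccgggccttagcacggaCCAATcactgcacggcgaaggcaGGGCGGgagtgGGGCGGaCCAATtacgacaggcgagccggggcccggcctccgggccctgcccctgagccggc
Nsdhl: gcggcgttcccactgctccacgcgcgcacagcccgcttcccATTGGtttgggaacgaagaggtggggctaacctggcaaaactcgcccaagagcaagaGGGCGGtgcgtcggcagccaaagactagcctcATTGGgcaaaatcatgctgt
Srebf2: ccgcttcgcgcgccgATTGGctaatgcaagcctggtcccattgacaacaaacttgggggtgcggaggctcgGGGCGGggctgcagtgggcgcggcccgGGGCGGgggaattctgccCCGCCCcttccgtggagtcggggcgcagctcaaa

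Acat2 lies at chr17:12960726-12960875, Hmgcs1 at chr13:119690201-119690350, Sc4mol at chr8:64733579-64733728, Nsdhl at chrX:72918371-72918520 and Srebf2 at chr15:82147119-82147268, each upstream of the annotated start, with Acat2 and Sc4mol on the minus strand and the other 3 on the plus strand. The Hmgcs1 stretch holds the only exact TCACNCCAC in the windows found for the set. The Acat2 stretch holds neither that nor CCAAT, and the other 3 hold CCAAT and GGGCGG. Windows from 250 bases before to 50 after the start were found for 24 of the 30 genes; those of Fdps, Fdft1, Sqle, Stard4, Npc1 and Abcg1 were not in the table. CCAAT was in a window of 21 of the 24 (87.5%), against 43.5% of the 9411 tested genes with a window, GGGCGG in 22 (91.7%, against 69.7%) and TCACNCCAC in 1 (4.17%, against 1.41%). CCAAT was in the windows of genes that fell, such as Nsdhl and Sc4mol, and of genes that did not pass the test from E18 to P9, such as Mvk, Lss and Ggps1. These matches are descriptions of sequence and do not show binding.

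Of the 8 genes of the mevalonate steps, Acat2 and Hmgcs1 fell from E18 to P9 and 6 did not pass. Acat2, the cytosolic thiolase that joins 2 acetyl-CoA, measured 28.7 and 21.5 in the E15 pools A and B, 25.3 and 22.0 at E18, 11.3 and 8.15 at P0, 10.1 and 11.2 at P3, 9.03 and 10.003 at P6 and 8.86 and 7.61 at P9. The lowest embryonic value, 21.5, lay above the highest postnatal one, 11.3. Acat2 fell by 1.42 on the log2 scale from E18 to P9 (SE 0.18, adjusted p = 1.77e-04, limma) and by 1.22 from E18 to P0 (SE 0.18, adjusted p = 0.0013), and each of the 12 fits that left out 1 library kept both calls. The transcript of Acat2 is 97.7% identical to that of Acat3 over 1477 of its 2250 bases, so reads could be placed on either. Acat3 measured 28.3 to 38.8 in the embryonic and 30.6 to 42.3 in the postnatal libraries, and rose by 0.48 from E18 to P9 (SE 0.13, adjusted p = 0.0122). The sum of both was 52.1 ± 2.51 at E18 and 48.3 ± 2.95 at P9 (mean ± SD, n = 2 pools), so the level and the fall of Acat2 alone are uncertain. Acat3 was chosen after its values were seen.

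Hmgcs1, which makes HMG-CoA, measured 50.1 and 41.4 in the E15 pools A and B, 39.6 and 34.3 at E18, 19.9 and 21.3 at P0, 23.2 and 26.4 at P3, 26.1 and 25.3 at P6 and 25.6 and 22.4 at P9. It was highest at E15, lowest at P0 and 22.4 to 26.4 from P3 on, and the embryonic and postnatal values did not overlap. It fell by 0.60 from E18 to P9 (SE 0.13, adjusted p = 0.0047) and by 0.81 from E18 to P0 (SE 0.13, adjusted p = 0.0019). Hmgcs1 shares 557 exonic bases with an antisense transcript, and whether counting used strand is not stated.

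Fdps, which builds farnesyl diphosphate for sterols and for protein prenylation, measured 14.6 and 18.2 in the E15 pools A and B, 12.5 and 10.98 at E18, 11.4 and 11.1 at P0, 8.89 and 11.3 at P3, 12.7 and 10.4 at P6 and 10.4 and 7.85 at P9. Its E15 values were above all others, and the later stages overlapped, with 12.7 in P6 A above both E18 values. It was lower at P9 than at E15 by 0.79 (SE 0.17, adjusted p = 0.0045), while its change from E18 to P9, -0.34, did not pass (adjusted p = 0.134). Mevalonate kinase (Mvk) and the isomerase Idi1 were likewise lower at P9 than at E15, with changes of -0.51 (SE 0.18, adjusted p = 0.0462) and -0.77 (SE 0.16, adjusted p = 0.0036), and were not called from E18 to P9. The Mvk call ended in 9 of the 12 fits that left out a library, and was -0.22 without P9 A (adjusted p = 0.363). Fdps shares 1124 exonic bases with a gene model on its own strand, and 684 bases of Idi1 and 903 of Ggps1 are at least 95% identical to another gene model. Phosphomevalonate kinase (Pmvk), mevalonate diphosphate decarboxylase (Mvd) and Ggps1, which makes geranylgeranyl diphosphate for prenylation, were not called in any contrast; their stage means ran from 19.3 to 23.8, 14.9 to 19.4 and 8.91 to 10.9.

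Of the squalene and sterol steps, 4 genes fell from E18 to P9, 1 rose and 6 did not pass. Sc4mol, the sterol C4-methyl oxidase, measured 4.86 and 5.05 in the E15 pools A and B, 3.93 and 3.69 at E18, 1.42 and 1.36 at P0, 1.62 and 2.61 at P3, 2.28 and 2.52 at P6 and 2.19 and 2.52 at P9. Both P0 values were the lowest, and the lowest embryonic value, 3.69, lay above the highest postnatal one, 2.61. It fell by 1.01 from E18 to P0 (SE 0.16, adjusted p = 0.0017), and its change from E18 to P9 was -0.52 (SE 0.16, adjusted p = 0.0235), a call that ended without E18 A, E18 B or P9 A (adjusted p = 0.116, 0.0812 and 0.124) and after quantile normalization (-0.36, adjusted p = 0.0851).

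Nsdhl, the dehydrogenase that follows Sc4mol in removing the C4 methyl groups, measured 17.1 and 19.4 in the E15 pools A and B, 13.9 and 13.2 at E18, 8.61 and 10.3 at P0, 8.35 and 9.70 at P3, 8.26 and 9.21 at P6 and 7.68 and 8.39 at P9. Its E15 values were the highest and its E18 values came next, and the embryonic and postnatal ranges did not overlap. It was lower at P9 than at E18 by 0.69 (SE 0.13, adjusted p = 0.0021) and than at E15 by 1.09 (SE 0.13, adjusted p = 1.21e-04), and both calls held in all 12 fits that left out a library. Its fall of 0.48 from E18 to P0 (SE 0.13, adjusted p = 0.0173) did not hold without E18 A, E18 B or P0 A (adjusted p = 0.0990, 0.0703 and 0.113). Ebp, the sterol isomerase, measured 5.55 and 5.62 in the E15 pools A and B, 6.67 and 7.25 at E18, 5.13 and 4.79 at P0, 4.31 and 5.08 at P3, 5.16 and 4.12 at P6 and 4.93 and 3.46 at P9. It peaked at E18 and its E15 values, 5.55 and 5.62, lay between those of E18 and the highest postnatal one, 5.16. It fell by 0.63 from E18 to P9 (SE 0.16, adjusted p = 0.0098), a call that ended without E18 B (adjusted p = 0.0700) or P9 B (0.0833).

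Dhcr7, the reductase of the last step from 7-dehydrocholesterol to cholesterol, was lowest at P0 and highest at P6 and P9. It measured 13.0 and 10.2 in the E15 pools A and B, 10.3 and 9.92 at E18, 7.25 and 6.21 at P0, 10.9 and 10.7 at P3, 15.2 and 14.0 at P6 and 15.0 and 14.6 at P9. Both P0 values were below those of every other stage, and the P6 and P9 values did not overlap those of the earlier stages. It fell by 0.53 from E18 to P0 (SE 0.13, adjusted p = 0.0114) and stood 0.51 higher at P9 than at E18 (SE 0.13, adjusted p = 0.0095). The latter call ended without E18 B (adjusted p = 0.0627) or P9 A (0.0536), and the former without E18 A, E18 B or P0 B (0.0682, 0.0589 and 0.0793). As deposited, the change from E18 to P9 was -0.18 (adjusted p = 0.375), so its rise is relative to the median gene.

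Squalene epoxidase (Sqle), a controlled step of the route, was 29.1 ± 2.66 at E18, 20.3 ± 1.27 at P0, 29.2 ± 1.92 at P3 and 23.4 ± 1.18 at P9. It fell by 0.50 from E18 to P0 (SE 0.11, adjusted p = 0.0073; 0.0685 without E18 A and 0.0539 without P0 B), and its call from E18 to P9 (-0.30, SE 0.11, adjusted p = 0.0485) ended in 10 of the 12 fits that left out a library, with adjusted p of 0.0580 to 0.285. Cyp51, the lanosterol demethylase, was 29.4 ± 4.65 at E15 and 20.1 to 21.9 on average at the other stages; it was lower at P9 than at E15 by 0.48 (SE 0.13, adjusted p = 0.0122; 0.0788 without P9 B). Squalene synthase (Fdft1) had no call; it was -0.39 at P9 against E15 (adjusted p = 0.0695) and shares 774 exonic bases with Ctsb. Lanosterol synthase (Lss), Tm7sf2, Hsd17b7 and Sc5d, which make lanosterol or act between it and 7-dehydrocholesterol, did not pass in any contrast. Their changes from E18 to P9 were 0.11, 0.14, 0.11 and 0.09, each with an SE of 0.12 to 0.17.

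**Figure D2:**
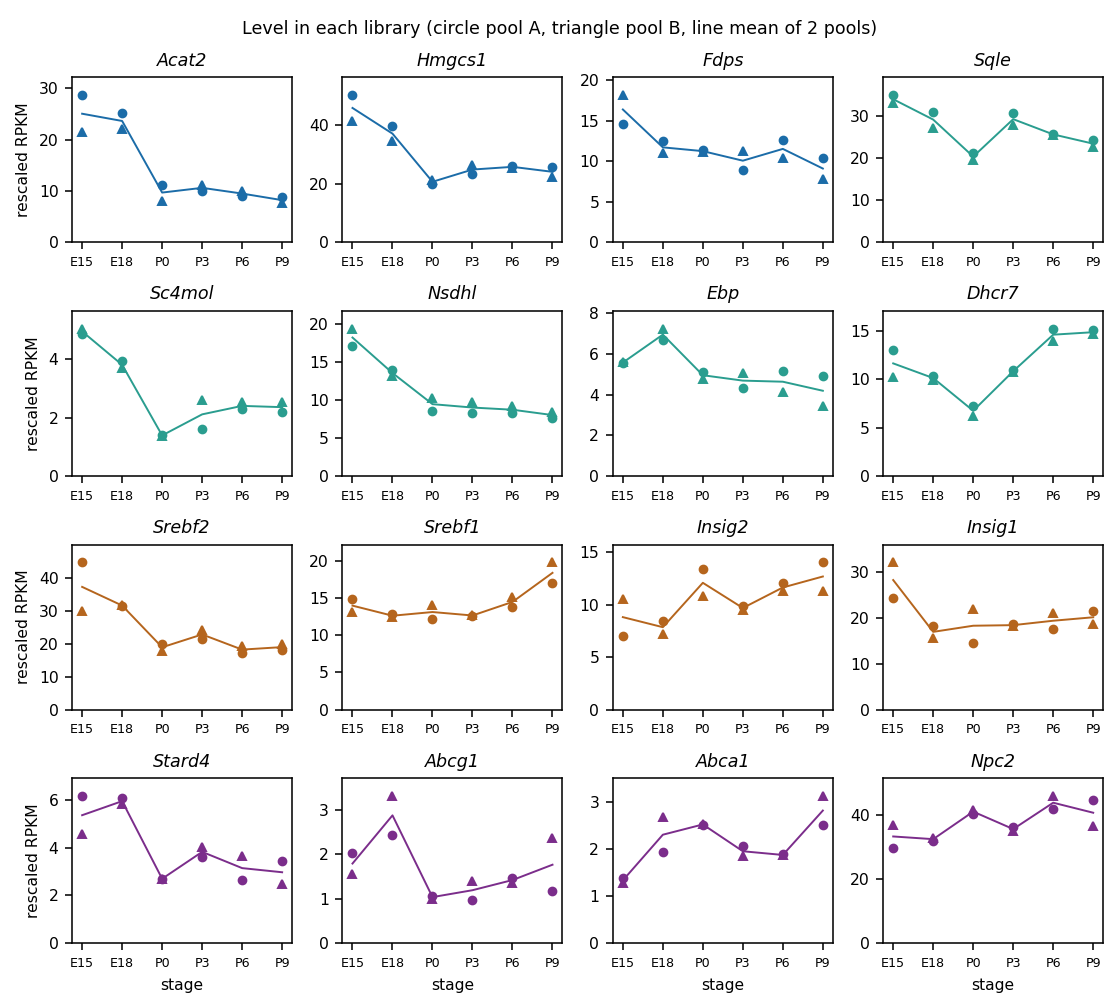
Rescaled RPKM of 16 of the genes in each library by stage; circles are pool A, triangles pool B, lines the mean of 2 pools, and every axis starts at 0. Acat2, Hmgcs1, Sc4mol, Srebf2 and Stard4 step down between E18 and P0, Dhcr7 is lowest at P0 and highest at P6 and P9, and Srebf1 is highest at P9.

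From E18 to P9 the 2 SREBP genes moved in opposite directions on the rescaled scale, while as deposited Srebf2 was -1.43 and Srebf1 -0.20. Srebf2, whose product mainly drives cholesterol genes, measured 44.6 and 29.7 in the E15 pools A and B, 31.5 and 31.6 at E18, 19.96 and 17.8 at P0, 21.3 and 24.2 at P3, 17.1 and 19.3 at P6 and 17.9 and 19.9 at P9. The lowest embryonic value, 29.7, lay above the highest postnatal one, 24.2. It fell by 0.71 from E18 to P0 (SE 0.17, adjusted p = 0.0102), a call that ended without E18 A, E18 B or P0 B (adjusted p = 0.0534, 0.0610 and 0.0687), and stood 0.71 lower at P9 than at E18 (SE 0.17, adjusted p = 0.0076; 0.0546 without P9 A).

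Srebf1, whose product mainly drives fatty acid genes, measured 14.8 and 13.1 in the E15 pools A and B, 12.8 and 12.4 at E18, 12.2 and 14.0 at P0, 12.6 and 12.7 at P3, 13.8 and 15.1 at P6 and 16.9 and 19.8 at P9. The 2 P9 values were the highest of all and the other stages overlapped. It rose by 0.51 from E18 to P9 (SE 0.12, adjusted p = 0.0077), a call that ended without E18 B (adjusted p = 0.0527) or P9 B (0.0641). As deposited, this change was -0.20 (adjusted p = 0.279). Against E15 it was 0.37 higher at P9 (SE 0.12, adjusted p = 0.0329), but -0.26 as deposited and 0.08 with the total outside crystallins. That call ended without E15 B, E18 A, E18 B or P9 B, where the change was 0.28, 0.37, 0.37 and 0.27. The table gives 1 value for Srebf1, so its transcripts were not told apart.

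The ratio of 2 genes in a library does not depend on the scaling. Srebf1 over Srebf2 was 0.333 and 0.439 at E15, 0.406 and 0.394 at E18, 0.611 and 0.786 at P0, 0.591 and 0.523 at P3, 0.806 and 0.786 at P6 and 0.946 and 0.991 at P9. All 8 postnatal ratios lay above the 4 embryonic ones, and both P9 ratios above the rest. Acat2 over Lss was 1.53 to 1.86 before and 0.497 to 0.743 after birth, but reads of Acat2 could be placed on Acat3, so this ratio is uncertain. Dhcr7 over Nsdhl was 0.744 ± 0.00935 at E18, 0.721 ± 0.170 at P0 and 1.85 ± 0.150 at P9. These pairs were chosen after their values were seen, and no test was run on them.

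**Figure D3:**
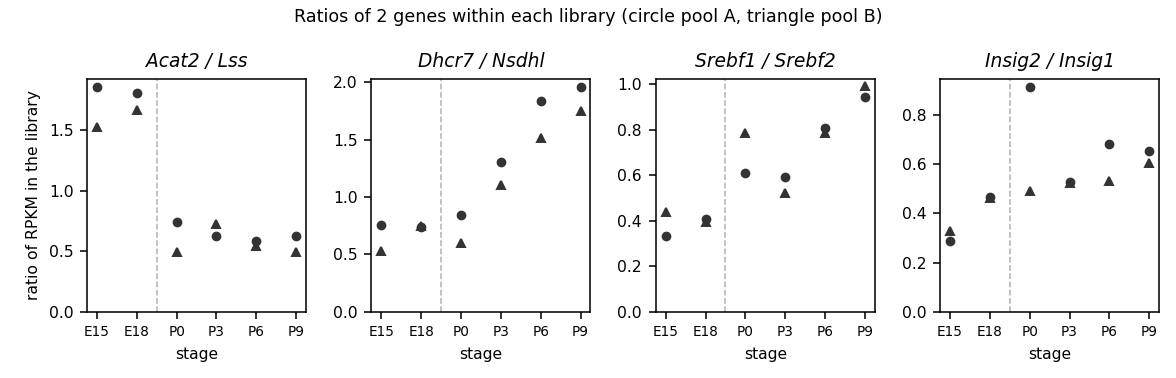
Ratio of the RPKM of 2 genes within each library by stage (circles pool A, triangles pool B), for Acat2 over Lss, Dhcr7 over Nsdhl, Srebf1 over Srebf2 and Insig2 over Insig1; the dashed line marks birth. Acat2 over Lss is at most 0.743 after birth and at least 1.53 before it, and Srebf1 over Srebf2 reaches 0.991 at P9. Reads of Acat2 could be placed on Acat3, so the first ratio is uncertain.

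Insig2, 1 of the 2 retention proteins of Scap, measured 7.04 and 10.6 in the E15 pools A and B, 8.46 and 7.25 at E18, 13.4 and 10.8 at P0, 9.87 and 9.49 at P3, 12.02 and 11.3 at P6 and 14.0 and 11.3 at P9. E15 B, at 10.6, overlapped the postnatal range, and both E18 values lay below it. It rose by 0.56 from E18 to P0 (SE 0.18, adjusted p = 0.0362) and by 0.62 from E18 to P9 (SE 0.18, adjusted p = 0.0188). The P9 call ended without E18 B (adjusted p = 0.123) or P9 A (0.131), the P0 call in 8 of the fits that left out a library, and as deposited its change from E18 to P9 was -0.06. Insig1, its SREBP-driven relative, was 24.4 and 32.1 at E15 and between 14.6 and 22.0 in all later libraries, and was not called between E18 and P9 (0.24, SE 0.19, adjusted p = 0.355). Scap was 9.87 ± 2.51 at E15, 8.22 ± 0.730 at P0 and 12.8 ± 2.62 at P9, with no call.

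Among transport genes, Stard4, which carries sterol between membranes in the cytosol, measured 6.16 and 4.55 in the E15 pools A and B, 6.08 and 5.81 at E18, 2.704 and 2.69 at P0, 3.61 and 4.03 at P3, 2.65 and 3.63 at P6 and 3.44 and 2.50 at P9. The lowest embryonic value, 4.55, lay above the highest postnatal one, 4.03. It fell by 0.91 from E18 to P0 (SE 0.18, adjusted p = 0.0039) and by 0.82 from E18 to P9 (SE 0.18, adjusted p = 0.0042), and no left-out library ended either call.

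The efflux transporters were among the least abundant genes of the set. Abca1, which loads cholesterol onto lipid-poor apolipoproteins, measured 1.38 and 1.28 in the E15 pools A and B, 1.93 and 2.67 at E18, 2.50 and 2.53 at P0, 2.06 and 1.84 at P3, 1.88 and 1.86 at P6 and 2.50 and 3.12 at P9. The E15 values were the lowest, and those of the later stages overlapped. It was 0.70 higher at P9 than at E15 (SE 0.15, adjusted p = 0.0039) and did not differ past the threshold between E18 and P9 (0.21, adjusted p = 0.280); as deposited, P9 against E15 was 0.26 (adjusted p = 0.222). Abcg1, which passes cholesterol to mature lipoproteins, measured 2.03 and 1.56 in the E15 pools A and B, 2.44 and 3.32 at E18, 1.07 and 1.01 at P0, 0.985 and 1.40 at P3, 1.48 and 1.37 at P6 and 1.17 and 2.37 at P9. It peaked at E18, was lowest at P0 and P3, and its P9 pools were far apart, at 1.17 and 2.37. It fell by 0.92 from E18 to P0 (SE 0.21, adjusted p = 0.0091), a call that ended without E18 B (-0.76, adjusted p = 0.0832) or P0 B (adjusted p = 0.0505). Macrophages express both transporters, and the mean sum of macrophage markers was 74.5 at E18, 28.2 at P0 and 48.6 at P3. At these stages Abcg1 averaged 2.88, 1.04 and 1.19, and Abca1 2.30, 2.52 and 1.95. At P9 the pool with more Abcg1 also had the larger photoreceptor sum, and at E18, where Abcg1 peaked, that sum averaged 1.63. The part of either cell type was not tested.

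Npc2, the soluble protein that takes cholesterol from lysosomal lipoproteins, had the highest mean over the 12 libraries in the set. By stage means, Hmgcs1 was higher at E15 and E18, and Srebf2 and Sqle (33.9 against 33.4) at E15. Npc2 measured 29.9 and 36.9 in the E15 pools A and B, 32.1 and 33.1 at E18, 40.6 and 41.8 at P0, 36.4 and 35.0 at P3, 41.9 and 46.1 at P6 and 44.9 and 36.8 at P9. Embryonic and postnatal values overlapped. It was 0.28 higher in the postnatal than the embryonic mean (SE 0.08, adjusted p = 0.0128; 0.0513 without E18 A) and lower as deposited (-0.26, adjusted p = 0.0019). That call also ended after quantile normalization (0.10, adjusted p = 0.183), with the total outside crystallins (-0.02, 0.825) and with Rax as a covariate (-0.05, 0.793), while from E18 to P9 its 0.31 did not pass (adjusted p = 0.0812). Its membrane partner Npc1 had stage means of 5.12 to 6.56 and Soat1, which esterifies cholesterol for storage, of 3.11 to 4.14, both with no call.

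Retina progenitor RNA moved with stage as many of these genes did. Rax, a homeobox gene of the eye field and retina progenitors, measured 53.3 and 17.7 in the E15 pools A and B, 42.3 and 45.2 at E18, 12.2 and 9.83 at P0, 14.4 and 19.0 at P3, 11.6 and 6.90 at P6 and 9.62 and 14.4 at P9. With log2 Rax as a covariate, no gene of the set was called from E18 to P0 and only 0.375% of all genes were, and from E18 to P9 Acat2 (-1.10, adjusted p = 0.0280) and Nsdhl were lower and Dhcr7 and Scap (0.79, adjusted p = 0.0482) higher, with 11.7% of all genes called. Srebf2 was then -0.19 (adjusted p = 0.617), Hmgcs1 -0.40 (0.240), Sc4mol -0.46 (0.340), Stard4 -0.71 (0.168) and Insig2 0.16 (0.749). The slope on Rax rests on differences between pools of a stage, and the pools differed most in Rax at E15. Against E15, 11 genes were lower and 4 higher in this fit (30.7% of all genes were called), and between the embryonic and postnatal means 8 were lower and 0 higher (14.6%). In the comparison with E15, Mvk, Stard4 and Srebf1 lost their calls.

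**Figure D4:**
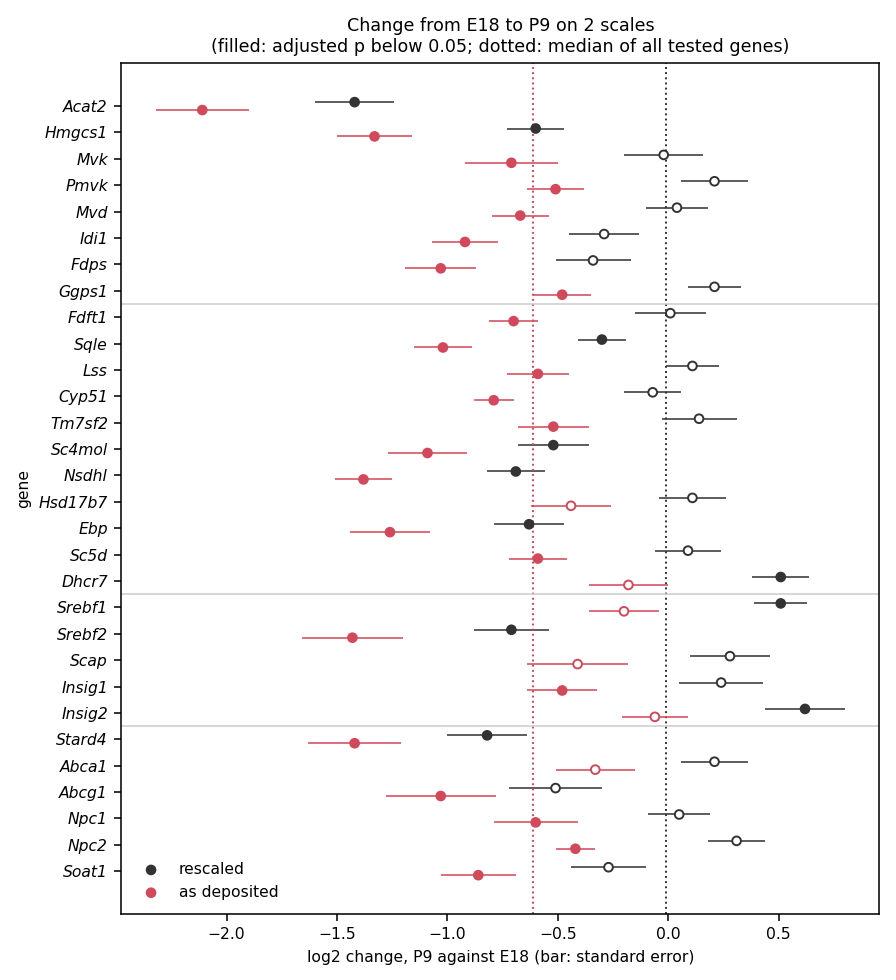
Log2 change from E18 to P9 with its standard error for the 30 genes, rescaled (black) and as deposited (red); filled points have an adjusted p below 0.05 and dotted lines mark the median of all tested genes, -0.01 and -0.61. Acat2 is lowest on both scales, at -1.42 and -2.11, and Dhcr7, Srebf1 and Insig2 are above 0 when rescaled and below it as deposited.

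Choice of scale set the count of falls. As deposited, 24 of the 30 genes fell from E18 to P9 and none rose (63.2% and 7.49% of all tested genes), and with each library scaled to its total outside crystallins, 16 fell and none rose (46.0% and 10.6%). Between E15 and P9, 23 were lower as deposited and 0 higher (55.4% and 8.65% of all genes), and 17 and 1 on the scale outside crystallins (33.7% and 13.8%). From E18 to P0 the counts were 18 and 0 (45.1% and 7.72%) and 14 and 0 (32.6% and 9.9%). Between the embryonic and postnatal means they were 28 and 0 (67.4% and 10.2%) and 21 and 0 (48.8% and 15.9%), and the joint test called 27 as deposited (74.2%). Acat2, Hmgcs1, Sqle, Sc4mol, Nsdhl, Ebp, Srebf2 and Stard4 were lower and past the threshold on both of these scales too.

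Across the 12 libraries, which share stage and cell makeup, the 19 enzymes were only loosely alike: the median Pearson r over their 171 pairs of log2 levels was 0.22 (-0.70 to 0.95). The level of Srebf2 ran with those of Acat2 (r = 0.95), Hmgcs1 (0.90), Nsdhl (0.86), Sc4mol (0.84) and Sqle (0.78), and against that of Ggps1 (-0.73). Its median r with the 19 was 0.54, and 0.04 with all other tested genes. The r of Srebf2 was 0.91 with Rax and 0.88 with the proliferation marker Mki67, and that of Stard4 was 0.90 with Srebf2, 0.85 with Rax and 0.86 with Mki67. These are descriptions over libraries that differ in stage.

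The intron that follows exon 16 of Srebf2 (transcript Srebf2-201) holds Mir33, whose miRNA is known to repress Abca1 and Abcg1. RefSeq (GRCm38.p6) gives the mature forms on the plus strand of chromosome 15, at chr15:82198127-82198147 for the 5p arm and chr15:82198167-82198188 for the 3p arm; capitals mark the seed, bases 2 to 8.
miR-33-5p: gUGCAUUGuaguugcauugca
miR-33-3p: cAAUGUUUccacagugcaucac

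The 3′ UTR of Abca1-201 on chromosome 4 (GENCODE vM21) holds 3 matches to the 5p seed, shown in capitals with the bases around them.
Abca1 site 1: actgacactattCAATGCAatgca
Abca1 site 2: cactattcaatgCAATGCActtca
Abca1 site 3: tgcaatgcacttCAATGCAacgag

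Abcg1 holds 2 matches and Nsdhl 1, and the other 27 genes of the set none in the transcript examined; 7.1% of 20987 genes hold at least 1 match and 0.07% hold 3 or more. A match is a description, not a working site. In the small-RNA libraries, where values are a signal that the authors scaled and the depth is unknown, miR-33-5p measured 6.59 and 13.8 in the E15 pools A and B, 17.2 and 11.8 at E18, 17.5 and 14.7 at P0, 11.4 and 24.2 at P3, 24.1 and 30.9 at P6 and 24.6 and 20.7 at P9 after the same rescaling. Its pools were far apart at E15 and P3, and E18 and P0 overlapped. It was 1.15 higher at P9 than at E15 (SE 0.39, adjusted p = 0.0241), and 0.30 as deposited (adjusted p = 0.544). From E18 to P9 it changed by 0.63 (SE 0.39), which did not pass (adjusted p = 0.228), and 39.6% of the 777 miRNAs tested were called; without 1 library it was 0.37 to 0.89, never past the threshold.

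The 3p arm measured 5.21 and 6.44 in the E15 pools A and B, 4.72 and 4.14 at E18, 8.55 and 7.91 at P0, 5.31 and 4.96 at P3, 11.3 and 12.4 at P6 and 12.9 and 9.93 at P9. The P6 and P9 values were the highest, and the P0 values lay between those and the rest. It rose by 1.19 from E18 to P9 (SE 0.28, adjusted p = 0.0043), and as deposited by 0.62 (adjusted p = 0.0986). Over the same span its host gene Srebf2 fell by 0.71. Of other miRNAs reported to act on cholesterol genes, miR-27a-3p went from 420 and 443 at E18 to 1734 and 1341 at P9 (1.82, SE 0.19, adjusted p = 1.83e-05; as deposited 1.18, adjusted p = 7.08e-04), miR-27b-3p rose by 0.53 (SE 0.16, adjusted p = 0.0177), miR-185-5p by 0.75 (SE 0.26, adjusted p = 0.0373), and miR-148a-3p changed by 0.52 (adjusted p = 0.0865). As deposited miR-27b-3p was -0.10 and miR-185-5p 0.15, neither past the threshold. miR-144-3p fell by 2.29 (SE 0.53, adjusted p = 0.0037). It is known from red blood cells, and the 5 erythroid markers summed to 1380 and 1510 at E18 and 107 and 161 at P9. At E15 that sum was higher, at 3389 and 3754. miR-144-3p was lower at E15 than at E18, at 11.4 and 39.7 against 63.7 and 60.9. The part of red blood cells was not tested.

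Other genes of the pathway were counted from lists, to be read beside the 20.5% of all tested genes that fell and the 22.2% that rose from E18 to P9. Of 12 fatty acid genes driven by SREBP, 6 fell from E18 to P9, 1 rose and 5 did not pass. Fasn, Scd1 and Acsl3 lost their calls without E18 A, E18 B, P9 A or P9 B, and the rise of Scd2 was lost without E18 B. Without E18 B or P9 A, fewer of all tested genes were called as well. Fads2 and Elovl5, which desaturate and elongate polyunsaturated fatty acids, fell by 1.36 (SE 0.19, adjusted p = 3.06e-04) and 1.35 (SE 0.19, adjusted p = 3.69e-04). With Rax as a covariate 1 of the 12 was called, beside 11.7% of all genes, and Elovl5 was not. Of 8 genes of SREBP processing and sterol sensing, 1 fell and 2 rose. Tmem97, a sterol-responsive partner of Npc1, fell by 1.11 (SE 0.17, adjusted p = 6.97e-04). Of 6 LXR genes, the target Arl4c fell (-0.73, SE 0.24, adjusted p = 0.0310; lost without E18 A, E18 B or P9 A, and with Rax as a covariate) and 5 did not pass.

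Of 9 lipoprotein uptake genes, 8 were tested, 2 fell and 2 rose. The receptor Lrp2 fell by 1.37 (SE 0.33, adjusted p = 0.0078) and Lrp8 by 1.01 (SE 0.30, adjusted p = 0.0214), both expressed in neural tissue too, and neither passed with Rax as a covariate. The Lrp2 call also ended without E18 B, and the Lrp8 call without E18 A, E18 B or P9 A, so without E18 B 0 fell; 7 of the 12 fits that left out a library gave 1 rise. Of 12 sterol carriers, 10 were tested, 3 rose and 2 fell (0 fell without E18 A or P9 B, and 1 without E18 B or P9 A); Gramd1b, which moves cholesterol from the plasma membrane to the endoplasmic reticulum, rose by 1.33 (SE 0.17, adjusted p = 2.06e-04) and the peroxisomal carrier Scp2 by 1.02 (SE 0.14, adjusted p = 3.61e-04). Of 6 genes of oxysterols and side routes, 5 were tested and 3 fell: Lbr, a nuclear envelope protein that is also a sterol C14 reductase like Tm7sf2, by 1.88 (SE 0.18, adjusted p = 4.52e-05), and the neuronal cholesterol hydroxylase Cyp46a1 by 1.40 (SE 0.33, adjusted p = 0.0066). With Rax as a covariate, Scp2 and Cyp46a1 were no longer called. Lbr over Tm7sf2 was 1.46 to 3.02 in the embryonic and 0.344 to 1.05 in the postnatal libraries. Of 11 genes that use isoprenoids, 2 rose and 9 did not pass. Icmt, which methylates prenylated proteins, rose by 0.92 (SE 0.13, adjusted p = 3.42e-04) and Fnta, a subunit of enzymes that attach the prenyl group, by 0.90 (SE 0.15, adjusted p = 8.55e-04; not called with Rax as a covariate). As deposited, neither Icmt (0.25) nor Fnta (0.17) passed, 11 of the 12 fatty acid genes and 8 of the 11 isoprenoid genes fell, and none of either list rose, where 63.2% of all tested genes fell and 7.49% rose. The lists were chosen with earlier results of these data known.

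**Figure D5:**
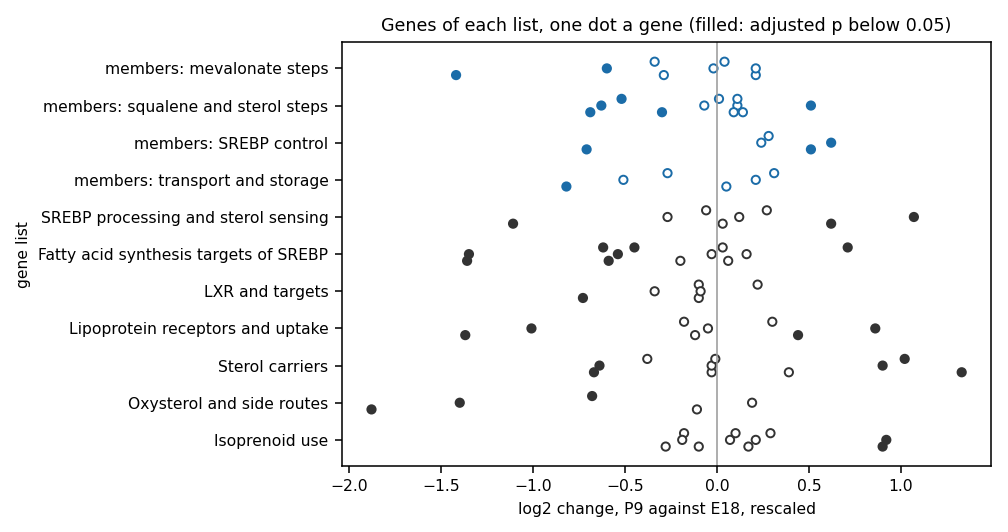
Log2 change from E18 to P9 on the rescaled scale, 1 dot a gene, for the 30 genes by role (blue) and for 7 lists of other genes of the pathway (black); filled dots have an adjusted p below 0.05. Falls reach -1.88 (Lbr) and rises 1.33 (Gramd1b), and each role of the set holds genes on both sides of 0.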

How the data were processed

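Lenses of 12 pools (6 stages, 2 pools each) gave mRNA and small-RNA libraries. The deposited mRNA values were read as RPKM, so count tests were not used as the main result. Of the 249 to 345 low values used per library, from genes with 1 transcript, 74.2% to 83.5% were whole multiples of a read step (within 0.1 read). The step was the one that gave about the highest share in that library. A share of 20.0% holds for a step fixed beforehand, so it is not the chance level here. The small-RNA values are a signal normalized by the authors in a unit not given in the sources used here. Per the submitters' processing notes, the tools were Bowtie 0.12.8 and SAMtools 0.1.18, on GRCm38/mm10; whether counting used strand, and what was done with reads that match several places, is not stated there.

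From these, log2(rescaled RPKM + 1) was fitted with limma 3.58.1 in R 4.3.3 on genes with at least 1 RPKM in at least 2 libraries, with stage as a factor over the 12 libraries (6 residual degrees of freedom), an intensity trend and Benjamini-Hochberg adjustment over all genes; a call is an adjusted p below 0.05. The scale divides each library by its median ratio to the geometric mean. Fold changes of low genes are understated on this scale. On simulated data of 14405 genes, 71.6% of 95 genes changed by 1 (log2) and 96.2% of 105 changed by 2 were recovered from E18 to P9. Of the calls, 8.15% were false. The changed genes were drawn from those with a mean log2 level above 2 and were changed at P9 only. All other genes were simulated without change, whereas 20.5% fell and 22.2% rose in the data. The rates therefore do not cover lower genes, such as Abca1 and Abcg1, and were not tested at the real share of changes. Pool letters did not pair the samples: over 15 pairs of stages the correlation of deviations was -0.27 to 0.22. The pools are separate biological replicates per the labels, and 2 a stage limit the precision. The members and lists were chosen with earlier results of these data known. Libraries are printed one by one for the 3 called genes of each role with the largest change from E18 to P9, the SREBP genes, and genes called against most of their role; up to 2 genes a list are named, by the same measure, and some results are not reported here. Alternatives were the deposited scale, quantile normalization, the total outside crystallins, a pseudocount of 0.1, no filter, a replicate block, a Rax covariate, no intensity trend, no E15 pools, and leaving out each library. Python 3.11.15, pandas 2.3.3 and numpy 2.4.6 were used.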

Additional observations from a re-analysis of the deposited data

How the results depend on the processing

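As deposited, the joint test called 27, and 24 fell and 0 rose from E18 to P9, 23 and 0 from E15 to P9, 18 and 0 from E18 to P0, and 28 and 0 from the embryonic to the postnatal mean, with 1 called between E15 and E18. Scaled to the total outside crystallins, 16 fell and 0 rose, 17 and 1, 14 and 0, and 21 and 0 in the same order. With the Rax covariate, 2 fell and 2 rose from E18 to P9, 11 fell and 4 rose from E15 to P9, 0 fell and 0 rose from E18 to P0, 8 fell and 0 rose between the means, and 1 was called between E15 and E18; quantile normalization called 1 there (Hsd17b7). With no filter 0 rose from E18 to P0. Without both E15 pools, 2 rose from E18 to P0, 2 were called from P0 to P3 and 1 from P3 to P6. Leaving out 1 library gave 10 to 18 in the joint test, 5 to 8 falling and 0 to 4 rising from E18 to P9, 9 to 11 and 1 to 5 from E15 to P9, 10 to 13 and 1 to 3 between the means, and 5 to 10 and 0 to 2 from E18 to P0. It gave 0 to 8 between E15 and E18 (8 without E15 A), 0 to 2 from P0 to P3, 0 to 1 from P3 to P6 and 0 to 0 from P6 to P9; the falls from E18 to P0 were 5 without E18 A, E18 B or P0 B. The sign of the change turned as deposited in 16 genes from E18 to P9 and 9 from E15 to P9, and with the total outside crystallins in 13 and 4, scales on which the median of all genes from E18 to P9 was -0.61 and -0.48. Those past the threshold on at least 1 of the compared scales were, as deposited from E18 to P9, Pmvk (-0.51), Mvd (-0.67), Ggps1 (-0.48), Fdft1 (-0.70), Lss (-0.59), Tm7sf2 (-0.52), Sc5d (-0.59), Dhcr7 (-0.18), Srebf1 (-0.20), Insig1 (-0.48), Insig2 (-0.06), Npc1 (-0.60) and Npc2 (-0.42), and from E15 to P9 Ggps1 (-0.45), Lss (-0.63), Sc5d (-0.41), Srebf1 (-0.26) and Npc2 (-0.37). With the total outside crystallins they were Mvd (-0.45), Fdft1 (-0.48) and Sc5d (-0.39) from E18 to P9. The deposited scale divides by a total that crystallins fill, and the cause of each other move was not tested. For miR-33-3p the deposited scale gave 0.62 (adjusted p = 0.0986) and leaving out 1 library 1.01 to 1.36; for miR-33-5p the latter gave 0.37 to 0.89. The pool letters do not pair the samples, and a replicate block gave 12 in the joint test and 8 falling and 3 rising from E18 to P9. With 2 pools a stage and 1 library left out, the lone pool is assumed to vary like the others. The share of all tested genes that was called also moved with the fit, as the shares given above show. No such share is given for the replicate block, for the fit with no filter or for most left-out libraries. These counts and ranges are therefore not a trait of the set.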
